A study of Mus musculus with 14 samples.

Results

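Miat and Firre are a pair of long noncoding RNAs, and their levels are described here in brainstem gliomas of mice with and without the histone methyltransferase Ezh2. They were selected by gene symbol from the table of the loss-of-function experiment, on the difference between its EZH2 LOF and EZH2 WT libraries, and are 2 of the 3533 genes in that table. That table is limited to genes with an FDR under 0.05 in the authors' own comparison of these libraries. Both the presence of Miat and Firre and their differences between the groups are therefore a description, with no test.

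The EZH2 LOF group held 4 tumors, replicates 13 to 16, from C57BL/6 mice that carried Nestin-Tv-a; p53f/f;Ezh2f/f. The EZH2 WT group held 3 tumors, replicates 1 to 3, from C57BL/6 mice that carried Nestin-Tv-a; p53f/f;Ezh2wt. All 7 tumors had received RCAS viruses carrying PDGF-B and Cre, so p53 was deleted in both groups, and Cre removed the exons of the catalytic SET domain of Ezh2 in EZH2 LOF only. RCAS viruses enter only cells that carry the avian receptor Tv-a, here driven by the Nestin promoter, so cells without the receptor would keep Ezh2. Which cells of the tumors kept it was not measured here, and the study's text calls the Ezh2 deletion partial. The labels do not give the ages of the mice. A separate gain-of-function experiment, with 4 tumors carrying Ezh2 Y641F and 3 controls, was normalized apart. Neither Miat nor Firre is among the 294 genes listed for it, and their levels in it were not analysed here.

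Long noncoding RNAs are transcripts that encode no known protein and can act as scaffolds or guides in the nucleus. Miat, also known as Gomafu, is a spliced nuclear RNA of neurons and neural progenitors that carries repeats of the branch point motif of introns and binds splicing factors through them. Firre is an X-linked nuclear RNA that stays near the chromosome from which it is transcribed, holds many copies of a repeated domain that binds the nuclear matrix protein hnRNPU, and touches several other chromosomes. Ezh2 is the catalytic subunit of Polycomb repressive complex 2 (PRC2), which places the repressive mark H3K27me3 on histone H3.

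In the deposited table (mm10), Miat (ENSMUSG00000097767) lies on the minus strand of chromosome 5, from 112213228 to 112228948, and GENCODE annotates it as a lincRNA. Firre (ENSMUSG00000085396) lies on the minus strand of the X chromosome, from 50563120 to 50635321. The longest Miat transcript in GENCODE, Miat-205, has 9163 bases in 7 exons and holds 6 copies of the branch point motif TACTAAC, all in exon 7. The transcript strand alone was searched. Of the 1197 genes with a transcript of 7331 to 11451 bases, 0.0835% (1 gene, Miat itself) had as many copies, and the median was 0 copies. Of all 55341 annotated genes, 4 had a transcript with at least 6 copies. The windows below show 5 of the 6 copies, which is the feature that Miat is known for. Capitals mark the motif, the sequences run 5′ to 3′ on the transcript, and the build is GRCm38. The first window is chr5:112217307-112217362 with 2 copies, and the second is chr5:112216750-112216814 with 3 copies.
Miat window 1: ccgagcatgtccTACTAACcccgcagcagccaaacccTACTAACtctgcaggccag
Miat window 2: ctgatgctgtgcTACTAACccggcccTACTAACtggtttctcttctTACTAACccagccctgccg

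The Firre transcript with the most exons, Firre-206, has 5555 bases in 20 exons. Its most frequent 20-base word occurred 10 times, once in each of 10 exons, and 31.9% of its 20-base words occurred more than once. The word lies at the start of the repeated domain, and 4 of the exons that carry it (exons 4, 9, 10 and 11) are all 155 bases long. These 4 exons shared 96.1% to 98.7% of their bases pairwise. Exons 4, 9 and 11 are printed to show how closely the repeats match, with the shared word in capitals, 5′ to 3′ on the minus strand of GRCm38. Exon 4 is chrX:50615361-50615515, exon 9 is chrX:50600744-50600898 and exon 11 is chrX:50595461-50595615.
Firre exon 4: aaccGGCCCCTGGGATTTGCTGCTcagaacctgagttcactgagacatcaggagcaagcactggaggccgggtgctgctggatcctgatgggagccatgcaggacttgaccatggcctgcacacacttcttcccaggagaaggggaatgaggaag
Firre exon 9: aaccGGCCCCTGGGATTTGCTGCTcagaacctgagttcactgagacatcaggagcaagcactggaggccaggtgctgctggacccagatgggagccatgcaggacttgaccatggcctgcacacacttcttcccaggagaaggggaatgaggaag
Firre exon 11: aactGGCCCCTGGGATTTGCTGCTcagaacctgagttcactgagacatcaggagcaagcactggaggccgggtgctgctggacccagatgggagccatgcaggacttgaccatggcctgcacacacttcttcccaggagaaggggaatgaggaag

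These repeats bear on how reads are counted. Of the 50-base words of Firre-206, the length of the sequenced reads, 14.97% occurred more than once in Firre itself and 0% occurred in another annotated gene, so a read from a repeat fits several places of the same gene. No source used here says whether such reads were counted, so the counts of Firre may lack them. Of the 50-base words of Miat-205, 0% were repeated within it and 23.2% also lie in another gene. These words belong to 5 genes that overlap Miat, the antisense lincRNA Gm26953 and 4 small RNAs on the strand of Miat, which hold 5.74% of the words. Libraries were prepared with a stranded kit, but no source used here gives the strand setting of the counting, so reads of Miat and of Gm26953 may not have been told apart. None of the 5 genes is in the table.

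CpG dinucleotides in a promoter are a known feature of loci that PRC2 can occupy, and the promoters of both genes are printed for that reason, as annotated by RefSeq (GRCm38.p6) from 250 bases before the start to 50 after it. Capitals mark each CG, which reads the same on both strands. The Miat promoter, chr5:112228899-112229198 on the minus strand, held 25 CG, and 18.4% of 32851 promoters of this length held as many. GENCODE starts the Miat gene at 112229395, upstream of this whole window, whereas the start of Firre is the same in both annotations. The Firre promoter, chrX:50635272-50635571 on the minus strand, held 12 CG, and 39.6% held as many. The median promoter held 7. No measurement of H3K27me3 or of binding at these promoters was analysed here.
Miat promoter: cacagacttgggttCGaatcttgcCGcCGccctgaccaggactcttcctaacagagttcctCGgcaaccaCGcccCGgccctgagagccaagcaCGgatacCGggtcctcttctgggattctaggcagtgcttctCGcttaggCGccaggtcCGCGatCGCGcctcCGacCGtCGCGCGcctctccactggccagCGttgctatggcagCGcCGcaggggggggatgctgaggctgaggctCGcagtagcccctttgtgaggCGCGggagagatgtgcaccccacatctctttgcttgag
Firre promoter: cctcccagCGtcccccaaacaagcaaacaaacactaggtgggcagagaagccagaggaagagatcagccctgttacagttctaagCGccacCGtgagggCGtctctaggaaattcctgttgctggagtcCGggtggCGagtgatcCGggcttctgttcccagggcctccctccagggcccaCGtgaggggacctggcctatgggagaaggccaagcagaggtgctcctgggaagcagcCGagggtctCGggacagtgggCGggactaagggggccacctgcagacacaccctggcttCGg

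Values are normalized counts, which are reads per gene divided by the size factor of the library. The size factor gives relative depth, and it ranged from 0.218 to 1.36 in EZH2 LOF, against 1.80 to 2.64 in EZH2 WT, so every EZH2 LOF library was shallower than every EZH2 WT library. Listed genes took 281847 to 1842891 reads per EZH2 LOF library, against 2763245 to 3685186 reads per EZH2 WT library. The part of depth in the results was not tested. Total RNA depleted of rRNA was sequenced, which keeps RNAs without a poly(A) tail. Ezh2 itself is not in the table, so the deletion was not checked in these libraries. In bulk tumors, a change in the number of cells that express an RNA and a change in RNA per cell cannot be told apart. The labels name separate tumors and say nothing further on their independence, so p-values measure only the spread between these samples.

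Miat was several-fold higher in EZH2 LOF tumors. It had 609.5, 805.1, 621.6 and 652.4 normalized counts in EZH2 LOF replicates 13, 14, 15 and 16, against 159.8, 131.6 and 193.0 in EZH2 WT replicates 1, 2 and 3. The groups did not overlap, and the lowest EZH2 LOF library was 3.16 times the highest EZH2 WT library. Miat averaged 672 ± 90.4 normalized counts in EZH2 LOF (SD, n = 4) and 161 ± 30.7 in EZH2 WT (SD, n = 3). The ratio of these means was 4.16, and the difference of mean log2(normalized count + 1), EZH2 LOF minus EZH2 WT, was 2.06 with a standard error of 0.17. These values rested on 133 to 845 reads per EZH2 LOF library and 287 to 373 per EZH2 WT library. The exact Poisson 95% interval of the highest library, EZH2 LOF replicate 14, ran from 726 to 891 normalized counts, and its lower end lay above the upper ends of replicates 13, 15 and 16 (722, 665 and 709). Such intervals cover counting error only.

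Firre was also higher, by a smaller factor. It had 352.9, 289.1, 297.2 and 289.8 normalized counts in EZH2 LOF replicates 13 to 16, against 120.3, 114.2 and 133.0 in EZH2 WT replicates 1 to 3. Again the groups did not overlap, and the lowest EZH2 LOF library was 2.17 times the highest EZH2 WT library. Firre averaged 307 ± 30.6 normalized counts in EZH2 LOF (SD, n = 4) and 122 ± 9.61 in EZH2 WT (SD, n = 3), a ratio of 2.51 and a log2 difference of 1.32 with a standard error of 0.10. The reads behind each value numbered 77 to 404 in EZH2 LOF and 216 to 301 in EZH2 WT. Replicates 14, 15 and 16 lay close together, and replicate 13, the shallowest library, lay above them with an interval from 278 to 441 that covers the values of the others.

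**Figure D1:**
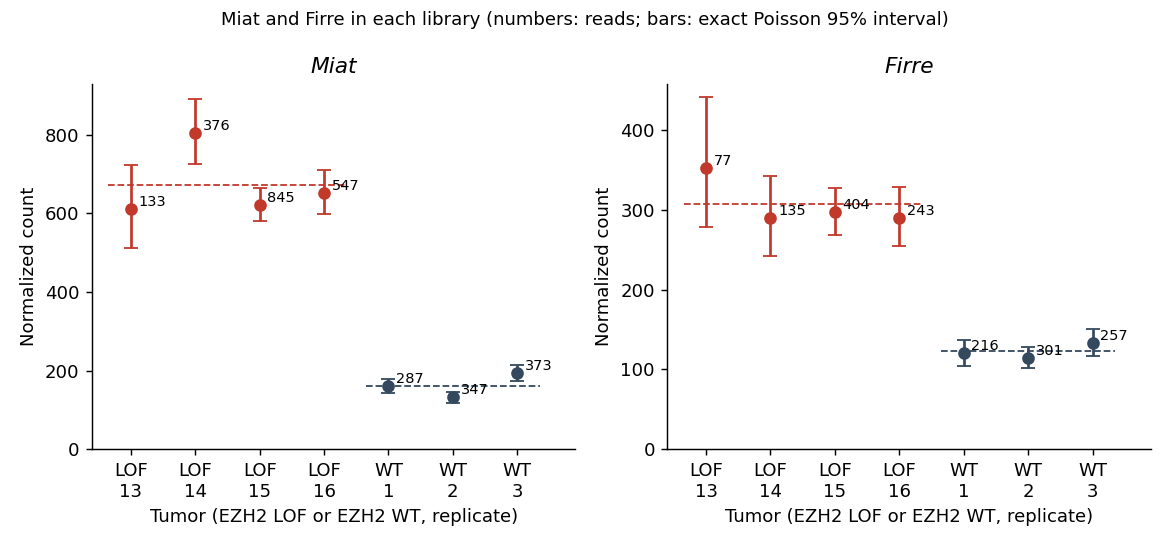
Normalized counts of Miat (left) and Firre (right) in the 4 EZH2 LOF and 3 EZH2 WT libraries, with the exact Poisson 95% interval as bars, the read number beside each point and the group mean dashed. EZH2 LOF libraries lie between 609.5 and 805.1 for Miat and between 289.1 and 352.9 for Firre, all above the EZH2 WT libraries.

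Both genes belong to the 41.9% of listed genes (1479 of 3533) for which every EZH2 LOF library lay above every EZH2 WT library, and another 44.6% lay below. This share is high because the table was selected on the same contrast. With limma on log2(normalized count + 1), 31.2% of the listed genes (1102) passed an adjusted p under 0.05 as higher in EZH2 LOF and 29.7% (1048) as lower. Ordered by log2 difference from the top, Miat was number 118 and Firre number 382 of the 3533 listed genes. Leaving out any of the 7 libraries gave a log2 difference from 1.92 to 2.20 for Miat and from 1.250 to 1.378 for Firre. Without the shallow EZH2 LOF replicates 13 and 14 together, it was 1.99 for Miat and 1.26 for Firre.

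Per kilobase of exon (9293 bases for Miat and 8247 for Firre), Miat had 72.3 ± 9.73 normalized counts in EZH2 LOF and 17.4 ± 3.31 in EZH2 WT (SD, n = 4 and n = 3). Firre had 37.3 ± 3.72 per kilobase in EZH2 LOF and 14.9 ± 1.17 in EZH2 WT (SD, n = 4 and n = 3). Within a library, the level of Miat per kilobase was 1.53, 2.47, 1.86 and 1.998 times that of Firre in EZH2 LOF replicates 13 to 16, against 1.18, 1.02 and 1.29 times in EZH2 WT replicates 1 to 3. With these lengths Miat lay above Firre in all 7 libraries, and EZH2 WT replicate 2 had nearly equal levels of both. The lengths join all GENCODE exons of each gene, the deposited coordinates of both genes differ from GENCODE, and isoforms were not told apart. The order of the 2 genes per kilobase therefore depends on the lengths used, and on whether reads from the Firre repeats were counted. Whatever the lengths, the ratio of Miat to Firre was larger in each EZH2 LOF library than in any EZH2 WT library. This ratio does not depend on the size factor.

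The spread among separate tumors holds counting error and differences between animals. The coefficient of variation of Miat was 13.5% in EZH2 LOF, where counting alone would give 5.64%, and 19.04% in EZH2 WT, where counting would give 5.52%. That of Firre was 9.98% in EZH2 LOF against 8.61% from counting, and 7.85% in EZH2 WT against 6.31% from counting. Among 974 listed genes within 1.5-fold of the mean level of Firre, the median SD of log2 values was 0.19 in EZH2 LOF and 0.22 in EZH2 WT, whereas Firre had 0.14 and 0.11. Among 845 genes within 1.5-fold of Miat, the median was 0.15 in EZH2 LOF and 0.20 in EZH2 WT, and Miat had 0.18 and 0.27.

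Other listed long noncoding RNAs were mostly higher in EZH2 LOF as well. Of a list of 74 such RNAs, 25 were in the table, Miat and Firre included. Of the other 23, 21 had a positive difference, against 48.9% of all listed genes, and 15 passed the limma test as higher in EZH2 LOF (31.2% of all listed genes did), 1 as lower, and 7 did not pass. Their median log2 difference was 1.12, against -0.33 for all 3533 listed genes. The 15 calls fell to 9 without EZH2 WT replicate 2 and to 5 without EZH2 LOF replicates 13 and 14 together. The gene called lower, Peg13, was not called when any library other than EZH2 LOF replicate 14 was left out.

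The 10 listed members with the largest differences included Miat and Firre, and the other 8 were all called higher in EZH2 LOF by limma. Vax2os, transcribed beside the homeobox gene Vax2, averaged 51.6 ± 25.4 normalized counts in EZH2 LOF (SD, n = 4) and 2.18 ± 2.57 in EZH2 WT (SD, n = 3; adjusted p = 0.0041), and 1 EZH2 WT library was at 0. Fendrr, a developmental RNA next to Foxf1 that can bind PRC2, averaged 102 ± 39.98 and 7.47 ± 0.79 normalized counts in EZH2 LOF and EZH2 WT (adjusted p = 0.0012), and H19, an imprinted RNA of fetal growth, 269 ± 85.9 and 32.0 ± 6.23 (adjusted p = 0.00083). Rpph1, the RNA part of RNase P, was 4.29-fold higher in EZH2 LOF (adjusted p = 0.013) and Foxd2os, transcribed beside Foxd2, 3.87-fold higher (adjusted p = 0.030). Foxd2os rested on few reads, with means of 22.6 normalized counts in EZH2 LOF and 5.84 in EZH2 WT. The imprinted RNAs Meg3 and Airn were 2.76-fold (adjusted p = 0.020) and 2.64-fold higher (adjusted p = 0.019). Malat1, an abundant RNA of nuclear speckles, had 53964 to 62903 normalized counts in EZH2 LOF libraries, against 19006 to 31039.5 in EZH2 WT libraries, a ratio of 2.49 (adjusted p = 0.024). Malat1 and Firre thus had nearly the same ratio at very different levels.

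**Figure D2:**
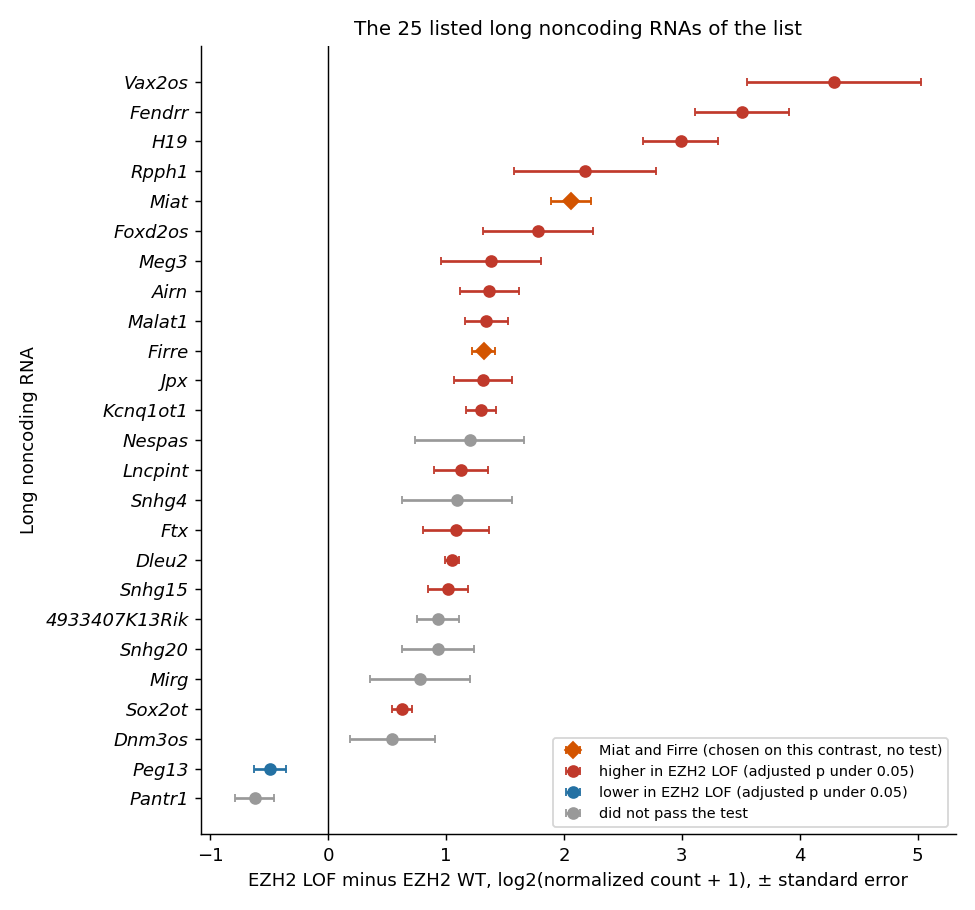
Log2 difference, EZH2 LOF minus EZH2 WT, with its standard error, for the 25 listed long noncoding RNAs. Diamonds are Miat (2.06) and Firre (1.32), red points passed the limma test as higher, the blue point (Peg13) as lower, and grey points did not pass.

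The split was similar by annotation class, a grouping made after the values were seen. The class shares genes with the list above, so it is not a separate observation. Besides Miat and Firre, GENCODE classes 75 listed genes as long noncoding, and 47 of these were called higher in EZH2 LOF and 1 lower, with a median log2 difference of 1.20. Among 3436 listed protein-coding genes, 1040 were called higher and 1044 lower, with a median of -0.36. All these genes were selected on the contrast that is counted.

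Firre differed in direction from most of its own chromosome. Of the other 133 listed X-linked genes, 17 (12.8%) were called higher in EZH2 LOF and 63 (47.4%) lower, against 31.2% and 29.7% of all listed genes, and 103 (77.4%) had a negative difference, against 51.1% of all listed genes. On chromosome 5, which carries Miat, 80 of the other 230 listed genes (34.8%) were called higher and 65 (28.3%) lower, near the shares over all listed genes. The other 6 listed X-linked long noncoding RNAs, looked at after their values were seen, all had a positive difference, and 4 of them were called higher. These shares are near those of the long noncoding class. Of its 75 listed genes besides Miat and Firre, these 6 included, 96% had a positive difference and 62.7% were called higher. The 6 include 3 loci tied to the biology of the X chromosome, though others of the 6 had larger differences. Jpx, an activator of Xist, had 73.3, 62.1, 56.6 and 54.9 normalized counts in EZH2 LOF replicates 13 to 16, against 22.8, 17.8 and 34.2 in EZH2 WT replicates 1 to 3 (limma adjusted p = 0.014). Ftx, another RNA of the X inactivation center, was 2.09-fold higher (limma adjusted p = 0.020), and 4933407K13Rik, transcribed at the Dxz4 repeat locus, had a ratio of 1.93 and did not pass (limma adjusted p = 0.051). None of the 5 sex-linked genes looked up, Xist among them, is in the table.

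Genes tied to Miat in other work were looked up next. Of 6 partners and splicing targets, 2 were listed. Sf1, the splicing factor that recognizes the branch point and binds the Miat repeats printed above, had 847.8, 899.3, 771.0 and 863.5 normalized counts in EZH2 LOF replicates 13 to 16, against 321.8, 479.8 and 645.8 in EZH2 WT replicates 1 to 3 (limma adjusted p = 0.021). Every EZH2 LOF library lay above every EZH2 WT library, as for 41.9% of all listed genes. Erbb4, a receptor tyrosine kinase whose transcript is spliced differently when human MIAT is altered, averaged 628 ± 71.6 normalized counts in EZH2 LOF (SD, n = 4) and 1181 ± 454 in EZH2 WT (SD, n = 3), a fall (limma adjusted p = 0.028). For Erbb4 each EZH2 LOF library lay below each EZH2 WT library, as for 44.6% of all listed genes. Of all listed genes, 31.2% were called higher and 29.7% lower. Splicing itself was not measured by these gene counts.

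Of 12 partners and contacts of Firre, 3 were listed and these were called lower in EZH2 LOF by limma, as were 29.7% of all listed genes. Stag2, a cohesin subunit encoded on the X chromosome, averaged 902 ± 90.3 normalized counts in EZH2 LOF and 1348 ± 165 in EZH2 WT (adjusted p = 0.018). Slc25a12, a mitochondrial carrier gene and one of the loci on other chromosomes that Firre contacts in mouse cells, averaged 338 ± 29.7 and 541 ± 63.9 normalized counts in EZH2 LOF and EZH2 WT (adjusted p = 0.011). Eef1a1, a translation elongation factor, averaged 4706 ± 244 and 6857 ± 1018 (adjusted p = 0.047), but it has many near-identical copies in the genome and its count is uncertain for that reason. All these SDs are over n = 4 and n = 3 libraries.

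Of 12 genes of PRC2, 3 were listed. Phf1, an accessory subunit that helps bring the complex to chromatin, had 82.5, 81.4, 83.9 and 95.4 normalized counts in EZH2 LOF replicates 13 to 16, against 39.5, 34.1 and 34.7 in EZH2 WT replicates 1 to 3, and was higher by limma (adjusted p = 0.0058). Its ratio of means was 2.38. Phf19, a related accessory subunit, averaged 133 ± 25.5 normalized counts in EZH2 LOF and 76.6 ± 35.002 in EZH2 WT (SD, n = 4 and n = 3) and did not pass (limma adjusted p = 0.097). Jarid2, which links PRC2 to chromatin, averaged 477 ± 62.8 and 373 ± 29.3 normalized counts in EZH2 LOF and EZH2 WT and did not pass (limma adjusted p = 0.11). For each of the 3 genes every EZH2 LOF library lay above every EZH2 WT library, as for 41.9% of all listed genes.

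The listed genes most like each member over the 7 libraries were found by the root mean square distance between profiles of log2(normalized count + 1), each centred on its mean. The groups set much of any such likeness, so it is a description. Nearest to Miat among 3532 genes were Rpl30 (distance 0.15), Pcdhac1 (0.20), Zfhx2 (0.22) and Tns2 (0.23). Rpl30, a ribosomal protein gene with many processed copies, had 123.7, 156.3, 132.4 and 170.6 normalized counts in EZH2 LOF replicates 13 to 16, against 30.1, 31.1 and 40.4 in EZH2 WT replicates 1 to 3. Zfhx2, a homeobox and zinc finger gene, was close to Miat in level as well, with means of 685 ± 61.8 in EZH2 LOF and 187 ± 77.4 in EZH2 WT (SD, n = 4 and n = 3). Pcdhac1 is a protocadherin that shares exons with its cluster, and Tns2 is a focal adhesion protein.

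The profile of Firre had closer neighbors. Nbeal2, a BEACH domain gene needed for platelet granules, lay at a distance of 0.08, with 119.2, 109.2, 103.7 and 114.5 normalized counts in EZH2 LOF replicates 13 to 16, against 46.2, 44.4 and 48.1 in EZH2 WT replicates 1 to 3. Tmprss5, a serine protease (0.09), Nckap5 (0.11) and Hapln3, a hyaluronan link protein (0.12), followed. The rank of Tmprss5 rests on few reads. It had 18.3 and 12.8 normalized counts in EZH2 LOF replicates 13 and 14, where 1 read was worth 4.58 and 2.14 normalized counts. The profiles of Miat and Firre were 0.42 apart, and Firre was number 95 in likeness to Miat while Miat was number 936 in likeness to Firre.

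**Figure D3:**
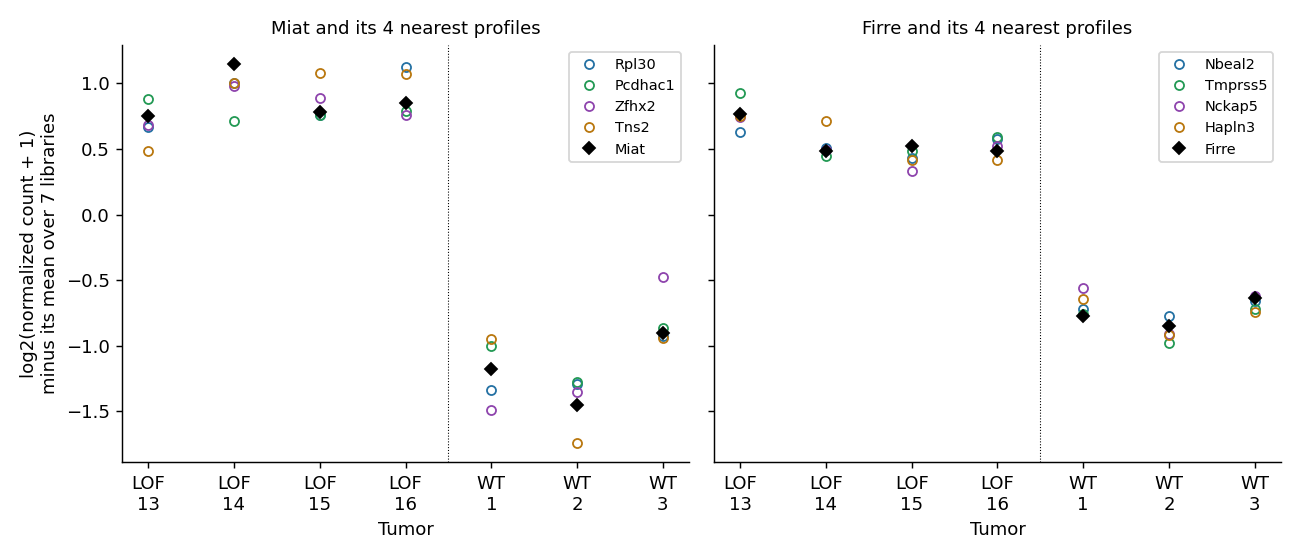
Log2(normalized count + 1) minus its mean over the 7 libraries for Miat (left) and Firre (right), as black diamonds, and the 4 genes with the nearest profile, as open circles, in EZH2 LOF and EZH2 WT tumors. The circles lie closer to the diamonds for Firre (distances of 0.08 to 0.12) than for Miat (0.15 to 0.23).

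Genes along the chromosome gave no common direction. Of the 20 annotated genes nearest to Miat, all within 294 kb, only Hps4 was listed, and of the 20 nearest to Firre, all within 618 kb, only Rap2c was listed. Hps4, which acts in the making of lysosome-related organelles, lies 114 kb from Miat and had means of 116 ± 30.6 normalized counts in EZH2 LOF and 73.5 ± 13.4 in EZH2 WT (SD, n = 4 and n = 3). Ttc28, on the other side at 923 kb, had a ratio of 1.69. Rap2c, a small GTPase 369 kb from Firre, was at 234 ± 31.2 normalized counts in EZH2 LOF and 298 ± 7.79 in EZH2 WT (SD, n = 4 and n = 3), a ratio of 0.79 opposite in direction to Firre. Elf4, an ETS transcription factor 2100 kb away on the other side, had a ratio of 2.04. A positive difference was seen in 48.9% of all listed genes. For the other listed genes of chromosome 5 and of the X chromosome the shares were 54.8% and 22.6%. Within 5 Mb, 19 of 31 listed genes around Miat had a positive difference and 12 a negative one, and around Firre 3 of 5 a positive and 2 a negative one. In these windows, no listed gene around Miat had a log2 difference above its 2.06, the highest being 1.79, whereas 1 of those around Firre reached 1.93 against 1.32 for Firre.

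**Figure D4:**
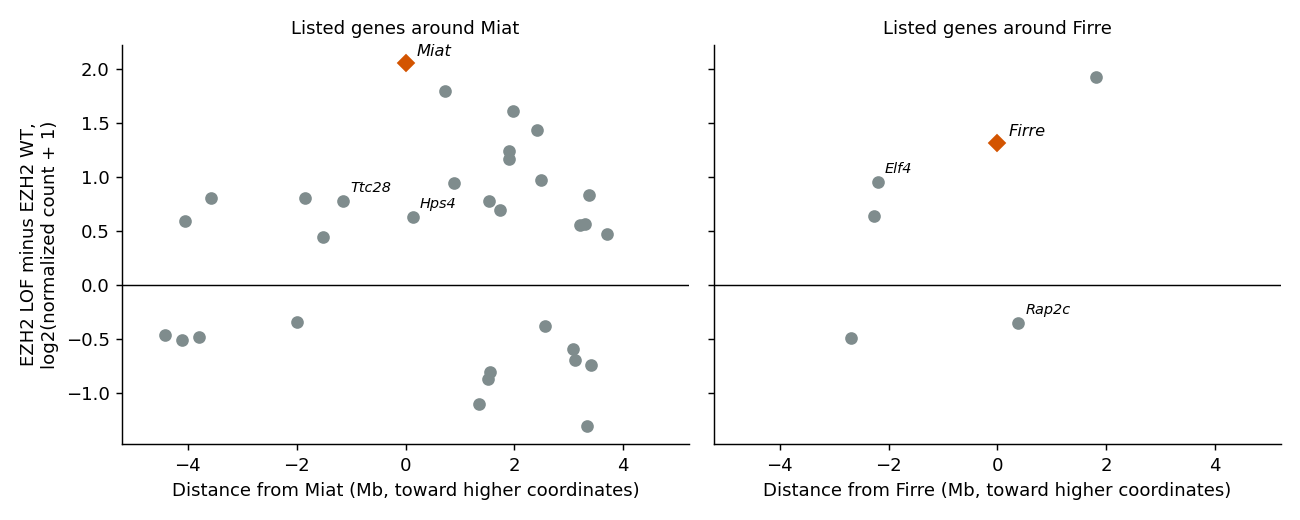
Log2 difference, EZH2 LOF minus EZH2 WT, of each listed gene against the distance in Mb of its midpoint from the start site of Miat (left) or Firre (right), with the nearest listed gene on each side named. Around Miat 19 of 31 genes lie above 0, and around Firre 3 of 5, against 48.9% of all listed genes.

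All listed markers of the short cell type lists below had lower means in EZH2 LOF, though not all passed the test. This direction was opposite to that of Miat and Firre. Genes of these lineages outside the lists were not counted, and Myrf, Nkx2-2 and Irf8 among them were called higher in EZH2 LOF by limma. Over all listed genes, 51.1% had a negative difference and 29.7% were called lower. Of 16 neuronal markers 4 were listed, and their summed level was 995 to 1450 normalized counts in EZH2 LOF libraries, against 1656 to 2412 in EZH2 WT libraries. Of these, Elavl4 was called lower by limma and Gad1, Tubb3 and Elavl3 did not pass. Of 9 markers of oligodendrocyte precursors and glioma, the labelled kind of tumor, Pdgfra and Olig2 were listed, with a summed level of 11192 to 13359 normalized counts in EZH2 LOF and 17233 to 28544 in EZH2 WT, and only Olig2 was called lower. Of 10 markers of mature oligodendrocytes 4 were listed and 3 called lower, with sums of 1722 to 2029 in EZH2 LOF and 2511 to 3481 in EZH2 WT. Astrocytes had 2 of 7 markers listed and 1 called lower (sums of 3314 to 4501 in EZH2 LOF and 5073 to 8866 in EZH2 WT). Microglia and macrophages had 1 of 11 listed, Itgam, called lower (55.0 to 131 and 124 to 389 normalized counts in EZH2 LOF and EZH2 WT), and endothelial and mural cells 1 of 7, Pdgfrb, called lower (45.8 to 191 and 229 to 503). No summed list was at 0 in any library, and markers outside the table were not analysed here. The part of cell makeup in the levels of Miat and Firre was not tested.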

How the data were processed

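RNA of the 7 tumors was sequenced as single-end reads of 50 bases. Per the submitters' processing notes and the paper's methods, the tools were FastQC, Trim Galore, STAR (mm10), HTSeq and DESeq2, and no source used here gives their versions. The signal values deposited by the authors are gene counts divided by a size factor, for genes called at an FDR under 0.05 only. The p-values that the authors deposited were used only to read the number of genes they had tested (13391), and their fold changes were not used. Values were whole multiples of 1 read for 100% of genes within 0.001 reads, though for EZH2 WT replicate 1 and EZH2 LOF replicate 15 this rests only on the step found here. The reads so recovered gave the counting intervals and count tests.

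Listed genes were tested with limma 3.58.1 (R 4.3.3) on log2(normalized count + 1), two-sided, with its trend option for the variance. Benjamini-Hochberg adjustment was over 13391 genes by limma, counting those outside the table as not significant, and a call is an adjusted p under 0.05. Alternatives were other pseudocounts, TMM scaling, a filter on low values, libraries left out, edgeR 4.0.16 and DESeq2 1.42.0.

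Transcripts come from GENCODE vM21 and promoters from RefSeq, both on the mm10 assembly, and 3531 of 3533 identifiers matched GENCODE. The members and all gene lists were chosen with earlier results of these data known, and list counts support nothing on their own. Genes named are Miat, Firre, all listed partners and PRC2 genes, the 10 long noncoding RNAs with the largest difference, the 4 nearest profiles of each member, the nearest listed gene on each side and up to 3 markers of each cell type. Jpx, Ftx, 4933407K13Rik, Peg13 and the fourth neuronal marker were named after their values were seen. The table of the gain-of-function experiment served only to look up identifiers.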

Additional observations from a re-analysis of the deposited data

Results flagged for a closer look

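Among the 4 EZH2 LOF libraries, 1 library stood far from the other 3 for 3 of the 30 genes named by rule. For Firre this was replicate 13, with 352.9 normalized counts, which rested on 77 reads. For Foxd2os it was replicate 14, with 10.7 normalized counts below the others, in a library where 1 read was worth 2.14 normalized counts. For Tns2 it was replicate 13, with 279.6 normalized counts below the others. The measure was the gap to the nearest value over the range of the group (0.87, 0.85 and 0.86 for these genes, above the 95% critical value of Dixon's test for 4 values), and chance flags about 1 in 20 groups.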

How the results depend on the processing

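The log2 differences and ratios of means of Miat and Firre moved by less than 1 SD between replicates in all 40 recomputed values, which covered pseudocounts of 0.5 and 5 (for the log2 differences), TMM scaling from the listed genes, each library left out and EZH2 LOF replicates 13 and 14 left out together. Leaving out 1 library cannot move a log2 difference by 1 SD in groups of this size. The count of 40 is therefore no sign of stability. Leaving out 1 library at a time gave ratios from 3.81 to 4.61 for Miat and from 2.38 to 2.62 for Firre. Counts over many genes depended on which libraries entered. With 1 library left out, 458 to 1048 listed genes were called higher in EZH2 LOF (1102 with all) and 357 to 876 lower (1048 with all). In the same fits, 11 to 17 long noncoding RNAs were called higher (17 with all, Miat and Firre counted) and 0 to 1 lower. Miat and Firre were selected on this contrast and carry no test. Without them, 9 to 15 long noncoding RNAs were called higher (15 with all). Listed genes called higher fell to 458 without EZH2 WT replicate 2, 641 without EZH2 LOF replicate 15 and 541 without EZH2 LOF replicate 16. Listed genes called lower fell to 662 and 357 without EZH2 WT replicates 1 and 2, and to 591, 642, 584 and 416 without EZH2 LOF replicates 13, 14, 15 and 16. Without EZH2 LOF replicates 13 and 14 together, 182 listed genes were called higher and 89 lower, with fewer samples in the fit. In that fit 7 long noncoding RNAs were called higher with Miat and Firre counted, 5 without them, and 0 lower. Long noncoding RNAs called lower numbered 2 with edgeR and 2 with DESeq2 on the recovered reads, against 1 with limma, and the cause was not tested. A filter at a mean of 10 normalized counts left the counts at 1102 and 1048, since every listed gene passed it. TMM scaling moved the median difference of the listed genes by 0.02. It was computed from listed genes alone, all selected as different between the groups, so it cannot check the deposited scaling. No paired analysis was possible because the groups share no replicate number. Firre rested on as few as 77 reads, in EZH2 LOF replicate 13.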
